A study of Rattus norvegicus with 2 samples.

Results

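Of 21154 skeletal muscle barcodes that passed the quality filters, out of 23416 in the deposited single-cell RNA-seq (scRNA-seq) matrices, 313 were pericytes by a marker rule. The rule asked for Kcnj8 or Abcc9 together with at least 2 of the 6 supporting genes Rgs5, Vtn, Pdgfrb, Notch3, Cox4i2 and Ndufa4l2. It also asked for no unique molecular identifier (UMI, 1 captured transcript) of the immune gene Ptprc, the endothelial genes Pecam1 and Cdh5 or the fibro-adipogenic gene Pdgfra. The study asked which muscle-resident cells mouse induced pluripotent stem cells (iPSCs) form in a rat host. It injected CRISPR-edited Dmd mdx; Pax7-nGFP mouse iPSCs, which carry a repaired dystrophin gene and a green reporter under the satellite cell gene Pax7, into morulae of Sprague Dawley (SD) rats. Muscle from the whole body of 1 such adult chimera and of 1 SD rat control was dissociated with collagenase and sorted for live cells with the dye Calcein Violet. Each animal gave 1 library, so differences between them cannot be checked against replicates. The age of each animal is not given in the sources used here. The reporter follows Pax7 and came with the injected mouse cells. In the chimera barcodes that met the pericyte rule 0 EGFP UMIs were found. Only 1 of these barcodes was mouse by the species call below, so this count says little about the reporter.

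In the chimera, a barcode was taken as mouse from 80% of its UMIs on mouse rows of the combined rat and mouse reference, as rat up to 20%, and as mixed otherwise. The members comprised 171 rat cells of the chimera, 1 mouse cell of the chimera and 141 cells of the SD rat. For comparison, endothelial cells were barcodes with Pecam1 and Cdh5, fibro-adipogenic progenitors (FAPs) had Pdgfra with collagen-class genes, and smooth muscle cells had Myh11 with at least 2 other contractile genes, no excluded gene and no place among the pericytes. The chimera library held 12174 kept barcodes with a median of 8052 UMIs, and the SD rat library held 8980 with a median of 6385 UMIs. Chimera rat pericytes ranged from 1066 to 20759 UMIs with a median of 4317, and SD rat pericytes from 555 to 23436 with a median of 3003. Pericytes were therefore shallow cells within their own libraries, and in both libraries they shared a mitochondrial share near 8%, with medians of 7.94% and 7.71%. Of the barcode sequences that occurred in both libraries, 2 belonged to chimera members and 1 to an SD rat member, and none was a member in both.

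Pericytes are mural cells that lie on capillaries within the basement membrane they share with the endothelium. Endothelial cells recruit them by secreting PDGF-B, which binds the receptor encoded by Pdgfrb, and contact with the endothelium activates Notch3 on the mural cell. Kcnj8 encodes the pore Kir6.1 and Abcc9 the regulatory subunit SUR2 of an ATP-sensitive potassium channel, which couples the metabolic state of the cell to its membrane potential. In skeletal muscle pericytes regulate capillary tone and vessel stability, and they grade into the contractile smooth muscle cells of arterioles and venules.

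The promoters of both channel genes are printed because either gene admits a barcode to the members. They come from RefSeq for the assembly GRCr8, run 5′ to 3′ on the minus strand, and cover 250 bases before and 50 bases from the annotated start, with those last 50 bases in capitals.
Kcnj8, chr4:177246499-177246798: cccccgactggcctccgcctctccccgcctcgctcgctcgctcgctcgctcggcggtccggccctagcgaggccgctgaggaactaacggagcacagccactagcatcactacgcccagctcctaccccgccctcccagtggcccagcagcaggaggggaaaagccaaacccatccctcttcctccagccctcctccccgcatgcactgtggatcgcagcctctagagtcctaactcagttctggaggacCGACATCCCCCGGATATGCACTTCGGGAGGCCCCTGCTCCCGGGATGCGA
Abcc9, chr4:177386299-177386598: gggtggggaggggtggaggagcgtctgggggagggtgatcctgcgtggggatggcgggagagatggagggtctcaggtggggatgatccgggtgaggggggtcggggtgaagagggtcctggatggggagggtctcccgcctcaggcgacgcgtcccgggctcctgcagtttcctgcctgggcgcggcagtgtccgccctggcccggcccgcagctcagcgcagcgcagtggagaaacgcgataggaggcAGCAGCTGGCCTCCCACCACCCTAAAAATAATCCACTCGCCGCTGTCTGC
The genes are neighbours, with 0 protein-coding genes between them in the annotation. The GC content was 67.0% for Kcnj8 and 69.0% for Abcc9, against a median of 51.7% over 33469 rat promoters of the same length. The letters TGGGAA, the core bound by the Notch partner RBPJ, were searched on both strands. They occurred in 25.7% of all promoters, in 2 of the 6 rule genes with an entry and in neither channel gene, which says only that these letters are not in this window.

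The channel genes were found in most members but not always together. Kcnj8 had a UMI in 132 of the 171 chimera rat pericytes (77.2%) and in 99 of the 141 SD rat pericytes (70.2%). Abcc9 had one in 142 (83.0%) and 117 (83.0%). Both were seen in 103 chimera and 75 SD rat members, Kcnj8 alone in 29 and 24, and Abcc9 alone in 39 and 42. These shares describe how the rule selected cells and are not findings.

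Among the supporting genes Rgs5, a regulator of G protein signalling enriched in pericytes, was the most widespread, in 161 chimera rat members (94.2%) and 133 SD rat members (94.3%). Its median was 9 UMIs per cell in both libraries, and its highest count was 32 in the chimera versus 35 in the SD rat. Vtn, which encodes the matrix protein vitronectin, was found in 140 and 115 members. Pdgfrb was found in 130 and 95 members, and the respiratory chain isoforms Cox4i2 and Ndufa4l2 in 125 and 128 chimera members and in 97 and 95 SD rat members. Notch3 was sparse, with 44 UMIs in 38 chimera rat members (22.2%) and 26 UMIs in 22 SD rat members (15.6%). All 5 genes listed as pericyte markers were therefore present in both rat groups, with Notch3 at the lowest depth. Exactly 2 supporting genes were found in 25 chimera and 30 SD rat members, 5 in 80 and 49, and all 6 in 14 and 11.

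Barcodes at the edge of the rule are given as a description. Rgs5 is itself a supporting gene, so its share among barcodes with few supporting genes follows from the rule. Among members with exactly 2 supporting genes Rgs5 was found in 64.0% in the chimera versus 73.3% in the SD rat, and Dcn, a matrix proteoglycan gene of fibroblasts, in 52.0% and 46.7%. Barcodes just outside, with a channel gene and 1 supporting gene, numbered 43 and 31. They had Rgs5 in 9.30% and 19.4% and Dcn in 69.8% and 67.7%. A larger group had at least 2 supporting genes and no excluded gene but neither channel gene, with 200 chimera rat and 227 SD rat barcodes. Rgs5 was found in 31.0% and 37.9% of that group and Dcn in 76.5% and 81.9%. The rule thus left out some barcodes with Rgs5, and the shares of pericytes given below do not count them. Barcodes with a channel gene and at least 2 supporting genes were otherwise often removed by an excluded gene. Of 347 such chimera rat barcodes and 283 such SD rat barcodes before that step, 140 and 109 carried Pecam1 or Cdh5, 48 and 47 carried Pdgfra, and 20 and 11 carried Ptprc.

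RNA of other cell types was present in the members. Of 12 markers each, the SD rat reference held 10 endothelial, 10 myofibre and 11 FAP genes, and the chimera reference all 12. The SD rat sums of these lists therefore rest on fewer genes. The pericyte marker list, with 5 genes, made up 0.354% of the UMIs of chimera rat members and 0.392% of those of SD rat members. The myofibre marker list made up 2.23% of the UMIs of chimera rat pericytes and 2.92% of those of SD rat pericytes, with medians per cell of 0.754% and 2.19%. It passed 2% of a cell's UMIs in 27 of 171 chimera members (15.8%) and in 76 of 141 SD rat members (53.9%), and reached 25.8% and 29.2% in single cells. FAP markers made up 1.06% and 3.36% with single cells up to 13.7% and 25.4%, endothelial markers 0.140% and 0.122% with Vwf at 0 in the chimera, and immune markers 0.0102% and 0.0616%. Schwann cell markers were near 0 at 0.00539% and 0.00716%, with Sox10 at 0 in both, and the erythroid list was at 0.00539% and 0.511%, where 1 SD rat member reached 24.5%. The part of these other RNAs in the comparisons was not tested. Members with an Rgs5 UMI and at most 2% of UMIs on each of these lists numbered 133 of the chimera rat cells (77.8%) and 56 of the SD rat cells (39.7%), and results that turned on this choice are also given over these cells.

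Beyond the genes of the rule, the transcripts that stood out in pericytes against all other rat barcodes of their library included vasoactive genes in both libraries. Because the same cells were selected on markers, these values are a description with no test. Ager, which encodes the receptor for advanced glycation end products, led with log2 differences of 4.98 in the chimera versus 4.92 in the SD rat. Subunits of soluble guanylate cyclase, the receptor for nitric oxide, were also far above the other barcodes, with 4.72 and 4.38 for Gucy1a2, 4.54 and 4.25 for Gucy1b1, and 4.33 and 4.17 for Gucy1a1. The cyclic nucleotide phosphodiesterase Pde3a was 4.15 and 3.95 higher. The neuropeptide Y receptor Npy1r was 4.52 and 3.80 higher, the calcium-activated chloride channel Ano1 4.49 and 4.33, and the gap junction gene Gja4 4.41 and 4.25. These differences are against all other barcodes and do not separate pericytes from smooth muscle cells. Against SD rat smooth muscle cells with at least 5 Myh11 UMIs, a choice made after the data were seen, Ano1 was -0.54 and Gja4 -0.86. Ager, Npy1r and Ano1 are also in the marker list that the study drew from the SD rat library, so their place here is not independent of it.

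Ager was one of the sharpest of these marks. It had a UMI in 53.8% of chimera and 46.8% of SD rat pericytes, and in 22.2% and 21.2% once each cell was thinned to 1000 UMIs. In FAPs, with median depths of 12660 and 11452 UMIs, Ager was found in 0.849% and 0.886% of cells, and in 0% and 0.127% after thinning. Steap4, a metalloreductase gene, was more widespread, in 81.3% and 77.3% of pericytes, or 50.3% and 59.1% after thinning. Smooth muscle cells had Steap4 in 17.5% and 16.0% of cells at medians of 7764 and 5313.5 UMIs. Endothelial cells had it in 15.5% and 10.1% at 5824 and 4180 UMIs. Both shares in pericytes lay above those of these deeper smooth muscle and endothelial cells. Steap4 was not confined to pericytes, since 58 of 99 mouse FAPs of the chimera had it on the mouse row, at a median of 15445 UMIs.

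Several genes of the exchange with the endothelium were abundant in pericytes of both libraries. In counts per 1000000 UMIs (CPM), Cxcl12, a chemokine of vascular niches, stood at 1088 in chimera and 1108 in SD rat pericytes, about the level of endothelial cells in the same libraries (1079.9 in chimera rat and 1066 in SD rat cells). Timp3, a secreted inhibitor of matrix proteases, was at 1329 and 1366 CPM. Col4a1, a chain of basement membrane collagen, was found in 98.8% and 93.6% of pericytes at 2539 and 3085 CPM, with 1768 and 3269 CPM in rat endothelial cells. Igf1, a growth factor, was at 768 and 593 CPM, against 1318 and 618 in rat FAPs. Pdgfb, the ligand of Pdgfrb, had only 3 and 2 UMIs in all pericytes of each library, whereas endothelial cells carried it at 65.0 CPM in chimera rat cells, 209 in chimera mouse cells and 10.2 in the SD rat.

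Contractile genes were unevenly spread over the members, as the plot of Rgs5 against contractile UMIs shows. None of Myh11, Acta2 and Tagln was found in 56 chimera and 57 SD rat pericytes, 1 of them in 47 and 46, 2 of them in 29 and 20, and all 3 in 39 and 18. The tenth of cells with the most of these UMIs (17 and 14 cells) held 66.4% of 3234 UMIs in chimera members and 90.3% of 2132 UMIs in SD rat members. A few contractile members thus carried most of this RNA in both libraries. The 3 chimera members with the most such UMIs (291, 215 and 209) had 0, 1 and 1 Rgs5 UMIs. The 3 SD rat members with the most (405, 358 and 265) had 23, 2 and 23. Whether such members were pericytes or smooth muscle cells admitted by the rule was not tested. Cells with all 3 genes and cells with none are set side by side as a description, because Kcnj8 and Rgs5 selected the members and a deeper cell is admitted on the same single UMI at a lower level. Rgs5 was at 1214 against 2779 per 1000000 of all UMIs in chimera cells and at 2016 against 3407 in SD rat cells. Kcnj8 was at 181 against 726 and at 234 against 976, and Steap4, the gene of these that lies outside the rule, at 448 against 992 and at 522 against 1134. The cells with all 3 genes were also deeper, with medians of 6645 against 3476.5 UMIs in chimera cells and 5946 against 2626 in SD rat cells, and the part of depth in these differences was not tested.

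**Figure D1:**
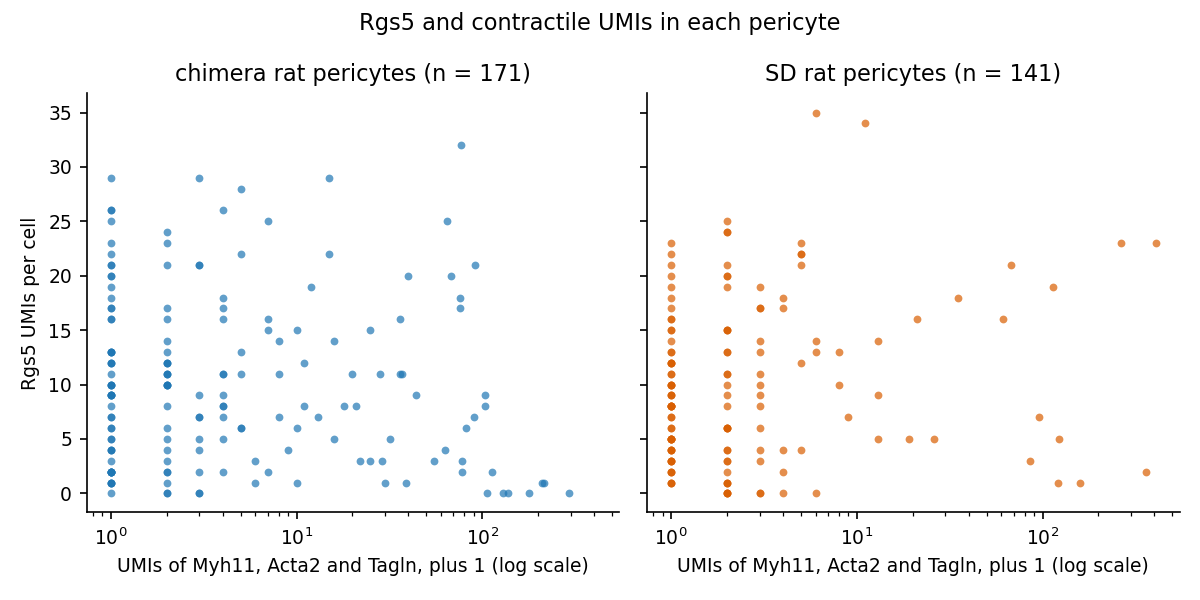
Each point is 1 pericyte of the chimera (rat, 171 cells) or of the SD rat (141 cells), with its summed UMIs of Myh11, Acta2 and Tagln plus 1 on a log axis and its Rgs5 UMIs on a linear axis. Most cells lie at few contractile UMIs, and only 46 and 19 cells have 10 or more.

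Pericytes made up 2.02% of the 8477 rat barcodes of the chimera (95% exact interval 1.73 to 2.34) and 1.57% of the 8980 barcodes of the SD rat (1.32 to 1.85). All intervals here are exact binomial or Poisson intervals and cover counting error only. These intervals overlap, and the digestion and the live sort set which cells reach a library. Members with Rgs5 and few other markers, the set chosen after the data were seen, were 133 of the chimera rat barcodes (1.57%, 1.32 to 1.86) and 56 of the SD rat barcodes (0.624%, 0.471 to 0.809), and these intervals lay apart. The difference between the animals therefore depended on which members were counted. The 2% limit on myofibre markers alone left out 76 of 141 SD rat and 27 of 171 chimera members. The part of that RNA in the gap was not tested. Per 100 endothelial cells there were 11.0 pericytes in the chimera when cells of both species were counted (9.38 to 12.9), and 17.2 in the SD rat (14.3 to 20.6). Counting rat cells alone, the chimera had 28.1 per 100 (23.6 to 33.4). The order of the animals therefore turned on whether mouse endothelial cells were in the denominator.

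Mouse cells contributed strongly to the endothelium of the chimera but hardly to the pericytes. Of barcodes called rat or mouse, 949 of 1557 endothelial cells were mouse (61.0%, 58.5 to 63.4), against 1 of 172 pericytes (0.581%, 0.0147 to 3.20) and 2 of 105 smooth muscle cells (1.90%, 0.232 to 6.71). The mouse share was 4.99% in FAPs (4.08 to 6.04), 31 of 207 in satellite cells (10.4% to 20.6%), 12.6% in immune cells (11.1 to 14.2) and 18.0% over all cells (17.3 to 18.8). As the plot of mouse shares shows, the pericyte interval lay below those of the endothelial, FAP, satellite and immune classes and overlapped that of smooth muscle cells. With a stricter species threshold of 90%, 14 rat pericytes remained beside 1 mouse barcode, and the mouse shares were 6.67% in pericytes and 94.99% in endothelial cells. That threshold removed most rat pericytes, whose median was 13.7% of UMIs on mouse rows. The higher shares therefore came with a loss of rat cells and are not closer estimates.

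**Figure D2:**
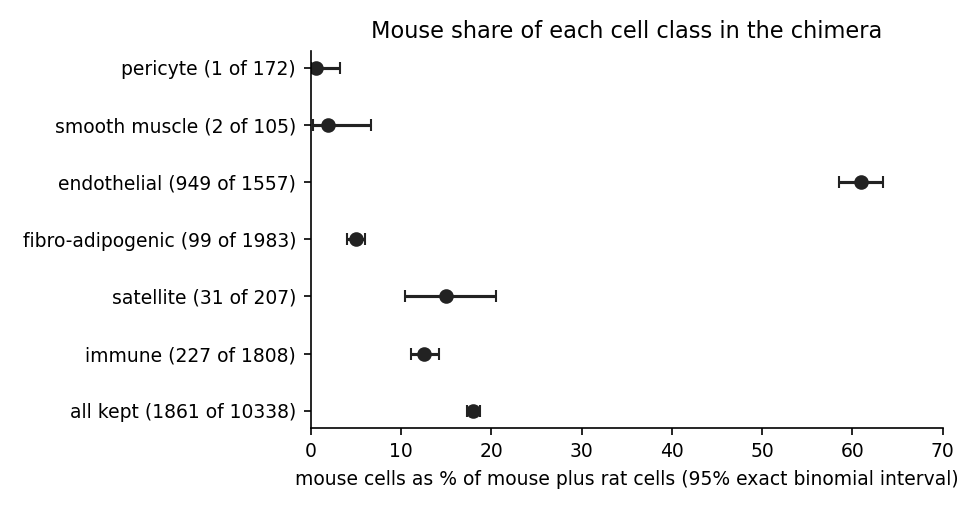
Points give mouse cells as a percentage of mouse plus rat cells in each class of the chimera, and bars the 95% exact binomial interval. Pericytes lie at 0.581% and endothelial cells at 61.0%, with all cells at 18.0%.

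The single mouse member went against its label. It had 7819 UMIs, 99.0% of them on mouse rows, and met the rule with 1 UMI of Abcc9, 2 of Pdgfrb and 3 of Ndufa4l2, without any UMI of Rgs5, Kcnj8, Vtn, Notch3 or Cox4i2. It carried 361 UMIs of Col1a1, 567 of Col1a2, 262 of Col3a1, 83 of Dcn and 20 of Lum, genes of fibrillar collagens and their proteoglycans. It is called here the mouse barcode that met the rule, and the planned comparison of mouse with rat pericytes had too few cells to be made. A lack of Rgs5 was not particular to it. Among the rat members, 10 of the chimera and 8 of the SD rat also had no Rgs5 UMI, including the deepest SD rat member with 23436 UMIs. These rat members stayed in the summed counts, and their identity was not tested.

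Rgs5 and Kcnj8 were also scarce on mouse rows over the 1861 mouse barcodes as a whole. The mouse row of Rgs5 had 11 UMIs in 11 of them and never more than 1 in a cell, and the mouse row of Kcnj8 had 9 UMIs. Other genes of the rule were found on mouse rows in FAPs and in endothelial cells. Of the 63 mouse barcodes with mouse Vtn 45 were FAPs, and of the 102 with mouse Pdgfrb 52 were FAPs, whereas of the 61 with mouse Cox4i2 47 were endothelial cells and 3 were FAPs. Mouse Abcc9 was found in 23 barcodes, of which 14 were endothelial cells and 7 were FAPs, and mouse Notch3 in 39, of which 15 were FAPs and 6 endothelial cells.

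Rat Rgs5, by contrast, was seen in mouse barcodes, and chiefly in endothelial ones. It had a UMI in 151 of 949 mouse endothelial cells (15.9%, 13.6 to 18.4) at a median of 6758 UMIs, and 33 of these cells held 406 of the 613 UMIs. In mouse immune cells, with a median of 9968 UMIs, it was found in 1 of 227 (0.441%).

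The next comparison took chimera barcodes that met the positive side of the pericyte rule and also held Pecam1 or Cdh5, and asked on which species' rows each kind of transcript lay. There were 390 of them, of which 214 were mixed by the species call. In the mixed barcodes, the 8 genes of the rule had 10507 UMIs on rat rows and 139 on mouse rows, so that 1.31% were mouse. The 7 endothelial genes Pecam1, Cdh5, Flt1, Kdr, Egfl7, Tie1 and Emcn had 1234 UMIs on rat rows and 10712 on mouse rows, so that 89.7% were mouse (89.1 to 90.2). Within single barcodes the median mouse share was 0% for pericyte genes and 99.2% for endothelial genes. The plot of species shares per barcode shows both kinds gathered at opposite ends. The mixed droplets with both kinds of RNA therefore mostly held rat pericyte RNA and mouse endothelial RNA.

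Counted by the majority of UMIs of each kind, 198 of the 214 mixed barcodes (92.5%, 88.1 to 95.7) had rat pericyte and mouse endothelial genes. A further 12 were rat for both, 1 was mouse for both and 3 were tied. None had mouse pericyte with rat endothelial genes (0 of 214). With 1 mouse barcode among 172 chimera pericytes that pairing could hardly arise, so this 0 is a description and not a result about pairing. Because mixed barcodes are those with RNA of both species, the count over all 390 barcodes is the one the species call does not shape. There, 257 (65.9%) had rat pericyte and mouse endothelial genes, 123 were rat for both and again 0 had the opposite pairing. Of the UMIs, 70.5% of the endothelial ones were mouse and 98.7% of the pericyte ones were rat. The 65.9% therefore mostly follows the species of the endothelial RNA and is to be read beside the 61.0% of called endothelial cells that were mouse.

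**Figure D3:**
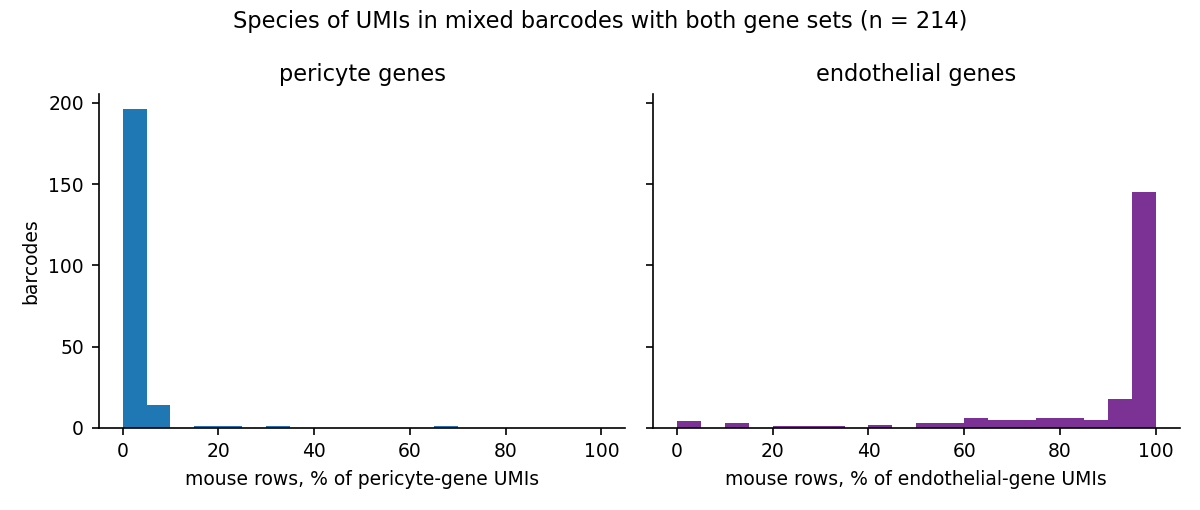
Histograms over the 214 mixed chimera barcodes with pericyte and endothelial genes show the percentage of UMIs on mouse rows per barcode (horizontal axis) and the number of barcodes (vertical axis), for pericyte genes and endothelial genes. The medians are 0% and 99.2%.

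Barcodes of 1 species give the share of these UMIs that lay on the other species' row. Whether such UMIs were misplaced reads or RNA of another cell was not tested. In chimera rat pericytes, 0.855% of the UMIs of the pericyte genes lay on mouse rows, and in rat endothelial cells without the pericyte genes 2.69% of those of the endothelial genes. The few endothelial-gene UMIs of chimera rat pericytes lay on mouse rows in 18.9% (21, against 90 on rat rows). In mouse endothelial cells without the pericyte genes 99.5% of endothelial UMIs lay on mouse rows. By gene, the mouse share in the mixed barcodes was 0.719% for Rgs5, 0.151% for Vtn and 28.8% for Notch3 among pericyte genes, and 96.1% for Pecam1 and 79.3% for Flt1 among endothelial genes. Notch3 was the exception among the pericyte genes, and it is also the sparsest of them. In chimera rat pericytes 12 of its 44 UMIs (27.3%) lay on the mouse row, so this share was not particular to the mixed barcodes.

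Barcodes with both kinds of RNA were deep. The 214 mixed barcodes had a median of 12076 UMIs, against 4317 in chimera rat pericytes. Scrublet, a doublet caller, marked 21 of them (9.81%), against 2 of 171 chimera rat pericytes, 2 of 141 SD rat pericytes and 444 of the 12174 kept chimera barcodes (3.65%). Whether such a barcode held 2 attached cells, 2 cells in 1 droplet or free RNA was not tested. In the SD rat, where species cannot be read, 58 of 818 endothelial barcodes (7.09%, 5.43 to 9.07) met the positive side of the rule. In the chimera 260 of 2021 did (12.9%, 11.4 to 14.4), and barcodes with both kinds were deeper than the other endothelial ones in each library, with medians of 12587.5 against 6107 UMIs and 10172 against 3935.

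A further 52 mixed barcodes met the whole pericyte rule and were not counted as members. Their share of mouse-row UMIs ran from 20.0% to 65.4% with a median of 25.1%, close to the 20% threshold, and 98.4% of the UMIs of their pericyte genes were rat (1332 against 21). Chimera rat members had 7.55% to 19.8% of UMIs on mouse rows with a median of 13.7%. Of them, 48 lay between 15% and 20%, and 26 barcodes lay just outside, between 20% and 25%.

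Pericytes were next compared with the smooth muscle cells of the same library, the nearest mural class. UMIs were summed over cells, and a gene was counted as higher or lower at a 2-fold difference of CPM after 5 CPM were added. Some of the lists below hold genes of the rule, whose part in the counts and medians is a description. These are Rgs5 among vasoactive genes, Pdgfrb and Notch3 among receptors, Notch3 in the Notch list and Vtn among matrix genes. In the SD rat, 263 of 3292 genes were higher in pericytes (7.99%) and 184 lower (5.59%). In the chimera 365 of 3966 were higher (9.2%) and 221 lower (5.57%). Of 3111 genes measured in both, 151 were higher in each library, which is 60.6% of those higher in the SD rat and 52.4% of those higher in the chimera. For lower genes the shared number was 54, or 38.6% and 36.0%.

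The smooth muscle class differed between the libraries, which bears on every value in this comparison. Of 106 SD rat smooth muscle barcodes 54 had a single Myh11 UMI and 30 had at least 5, whereas of 103 chimera barcodes 21 had a single one and 68 had at least 5. Values against the cells with at least 5 Myh11 UMIs, a choice made after the data were seen, are therefore given beside the main ones. In that comparison 226 of 2170 genes were higher in SD rat pericytes (10.4%) and 453 of 3501 in chimera rat pericytes (12.9%). Lower were 221 (10.2%) and 289 (8.25%). The counts per list that follow are to be read beside these shares and the main ones.

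More marks of pericytes outside the rule were higher than lower in pericytes. In the SD rat 7 of 12 measured genes were higher and 1 lower with a median log2 difference of 1.50, and in the chimera 4 of 14 were higher and 2 lower with a median of 0.64, against medians over all genes of -0.02 and 0.06. Against the cells with at least 5 Myh11 UMIs, 4 of 12 were higher and 1 lower in the SD rat (0.56), and 4 of 14 were higher and 2 lower in the chimera (0.26). In the main comparison over all genes 7.99% were higher in the SD rat and 9.2% in the chimera. Steap4 was at 1106 against 80.5 CPM in the SD rat (log2 3.70) and at 962 against 114 CPM in the chimera (3.02), and at 2.70 and 4.89 against strongly Myh11-positive cells. Art3, an ADP-ribosyltransferase family gene, was 2.23 higher in the SD rat and 3.87 in the chimera. Ager was 4.78 and 3.58 higher, and 5.63 and 4.07 against the cells with at least 5 Myh11 UMIs. Steap4, Art3 and Ager thus kept their direction in both libraries and against both forms of the smooth muscle class.

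Vasoactive receptors and second messengers leaned to pericytes, with 12 of 17 higher and 0 lower in the SD rat (median 1.26) and 7 of 18 higher and 3 lower in the chimera (0.67). Rgs5, a gene of the rule, is in this list, at 4.02 in the SD rat. The shares of all genes higher were 7.99% in the SD rat and 9.2% in the chimera. Ednrb, an endothelin receptor, was 2.64 higher in the SD rat and 2.84 in the chimera. Adora2a, an adenosine receptor, was 3.15 and 3.01 higher, Rgs4, a regulator of G protein signalling, 2.62 and 2.40, and Calcrl, the receptor subunit for adrenomedullin and calcitonin gene-related peptide, 1.85 and 1.66. Gucy1b1 was 2.69 higher in the SD rat and 1.02 in the chimera. Against cells with at least 5 Myh11 UMIs it was 1.06 and 0.63, so in the chimera it then no longer reached 2-fold. The list as a whole changed there to 6 higher and 3 lower of 14 in the SD rat (0.38), and to 7 higher and 3 lower of 18 in the chimera (0.28).

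Among receptors and ligands to the endothelium, 6 of 14 were higher and 3 lower in the SD rat and 5 of 16 were higher and 3 lower in the chimera, with medians of 0.41 and 0.27. The shares of all genes were 7.99% and 9.2% higher and 5.59% and 5.57% lower. Cxcl12 was at 1108 against 121 CPM in the SD rat (3.15) and 1088 against 200 CPM in the chimera (2.41). Timp3 was 3.23 and 1.72 higher, and Igf1 1.75 and 2.27. These 3 genes stayed at 2-fold or more against the cells with at least 5 Myh11 UMIs in both libraries. Of the Notch list, 2 of 5 were higher and 1 lower in the SD rat and 1 of 8 was higher and 2 lower in the chimera, and the target Hes1 was 2.03 and 1.08 higher.

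Contractile genes depended on the smooth muscle cells taken. Myh11, Acta2, Tagln, Cnn1, Lmod1 and Actg2 also selected those cells, and the cut on Myh11 UMIs selects further. Their lower values in pericytes therefore partly follow from the rules and are a description. In the SD rat 1 of 17 was higher and 1 lower with a median of 0.03, whereas in the chimera 0 were higher and 11 lower with a median of -1.34. Against cells with at least 5 Myh11 UMIs, 9 of 15 were lower in the SD rat (-1.16) and 14 of 17 in the chimera (-1.82), with 0 higher in both. The shares of all genes lower there were 10.2% and 8.25%. In the plot against smooth muscle cells the contractile genes separate the libraries. Acta2, the smooth muscle actin gene, was 0.19 in the SD rat and -1.77 in the chimera, and -1.35 and -2.32 against these cells. Mylk, the myosin light chain kinase gene, was 0.54 and -1.26, and -1.16 and -1.82 against them. The members still held contractile RNA, with Acta2 in 53.2% of chimera and 31.2% of SD rat members and Tagln in 43.3% and 36.9%. After thinning Acta2 was found in 35.7% and 21.2% (1.54% and 1.90% of thinned FAPs). These shares include the few most contractile members, whose identity was not tested.

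**Figure D4:**
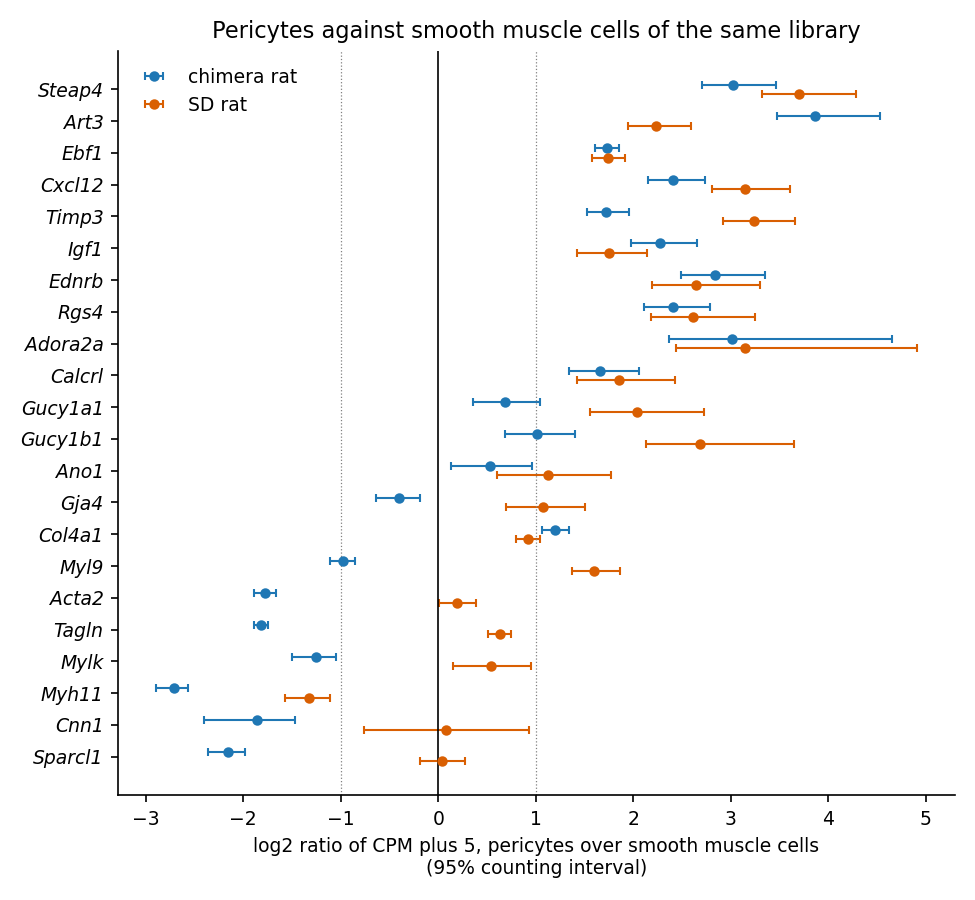
Points give log2 ratios of CPM plus 5, pericytes over smooth muscle cells, for 22 genes in the chimera rat and SD rat cells, and bars the 95% counting interval of the ratio without the added 5 CPM. Dotted lines mark 2-fold, and Acta2 is at -1.77 in the chimera versus 0.19 in the SD rat. Myh11, Acta2, Tagln and Cnn1 helped to select the smooth muscle cells.

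Matrix genes gave 1 of 26 higher and 3 lower in the SD rat (0.03) and 6 of 25 higher and 3 lower in the chimera (0.56). The 1 higher in the SD rat was Vtn, a gene of the rule, at 3.94, and in the chimera Vtn was at 3.52. The counts turned on the cells taken. Against the cells with at least 5 Myh11 UMIs, 7 of 23 were higher and 4 lower in the SD rat (0.27), and 13 of 25 were higher and 4 lower in the chimera (1.04). Over members with Rgs5 and few other markers, 6 of 25 were higher and 6 lower in the chimera (0.02), beside 11.2% and 7.81% of all genes there. Col4a1 was 0.92 higher in the SD rat and 1.20 in the chimera, and Nid1, a linker of basement membranes, 0.22 and 1.34. Sparcl1, a matricellular gene, was 0.04 in the SD rat and -2.16 in the chimera. Of the transcription factors of mural cells, 6 of 11 were higher and 0 lower in the SD rat (1.27) and 3 of 14 higher and 1 lower in the chimera (0.45). Against the cells with at least 5 Myh11 UMIs, 1 of 10 was higher and 0 lower in the SD rat (-0.03), and 4 of 14 were higher and 2 lower in the chimera (0.16). The shares of all genes higher there were 10.4% and 12.9%, so the SD rat count was near its share. Ebf1, a factor expressed across mural and stromal cells, was 1.74 and 1.73 higher, but in the SD rat 0.46 against the cells with at least 5 Myh11 UMIs.

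By size alone, Kcnj8 and Abcc9 led both libraries, which the rule for members fixed. Outside the rule, Nrg1, which encodes the growth factor neuregulin, was at 132 against 2.01 CPM in the SD rat, where the smooth muscle cells held 1 UMI. Pde8b, a phosphodiesterase of cyclic AMP, was at 158 against 1.76 CPM in the chimera, again on 1 UMI in smooth muscle cells. Ptn, the secreted factor pleiotrophin, was at 1256 against 109 CPM in the chimera (3.47). On the other side, Xirp1, an actin-binding repeat protein gene, was -4.47 in the SD rat and -3.99 in the chimera, and Kank1, an adaptor between adhesions and the cytoskeleton, -3.21 and -3.74. The calcium-activated potassium channel Kcnma1 was -3.09 and the gamma smooth muscle actin Actg2 -2.96 in the chimera. Actg2 is among the genes that selected the smooth muscle cells, so its value is a description.

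Rat pericytes of the chimera were compared with pericytes of the SD rat, a comparison of 1 library with 1 library over 639584 and 468446 summed UMIs. Of 3758 genes, 100 were higher in the chimera by 2-fold or more (2.66%) and 73 lower (1.94%), around a median of 0.07 and quartiles of -0.18 and 0.34. The counts per list for this comparison are to be read beside these shares. The chimera library was mapped to a reference with mouse genes added, and rat and mouse rows of a symbol were summed.

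Most of the genes with the highest ratios lay mainly on mouse rows in cells called rat. Lars2, a mitochondrial leucyl-tRNA synthetase gene, had 600 UMIs in the chimera versus 1 in the SD rat, and 99.7% of the 600 were on the mouse row. Cmss1 had 2032 against 23 UMIs with 98.1% on the mouse row, and the kinase gene Camk1d 915 against 11 with 98.9%. Gphn had 247 against 0 UMIs and Hmgb1, a chromatin protein gene, 111 against 0, in both cases with 100% on the mouse row. Cnot3 and Rraga had 74.7% and 87.0% of their UMIs there. Of the 10 highest genes, Zfp60 was the exception, with 79 against 8 UMIs (log2 2.54) and 0% on the mouse row. The part of the 2 references in these ratios was not tested, and without genes split between the species' rows 45 were higher and 47 lower.

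At the other end stood Hs6st3, a heparan sulfate sulfotransferase gene, with 8 UMIs in the chimera versus 676 in the SD rat (log2 -6.37), and Atp13a4, with 0 and 51 UMIs. Glis1, a zinc finger factor gene, was -2.67 with 17 against 92 UMIs. Htra1, a secreted serine protease gene, was -2.05, and a single cell held 18.9% of its chimera and 21.7% of its SD rat UMIs. Serf2 was -1.94 with 299 against 848 UMIs. Hs6st3 was found in 2.92% of chimera rat and 89.4% of SD rat pericytes. The part of the different references in these lower values was not tested, so they are not read as a loss of expression.

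In the plot of listed genes, those of the rule lay within 2-fold of equal CPM. Kcnj8 was at 732 CPM in the chimera versus 683 in the SD rat (log2 0.10, -0.11 to 0.31), and Abcc9 at 782 and 700 (0.16, -0.04 to 0.36). Rgs5 was at 2728 and 3055 CPM (-0.16, -0.26 to -0.06) and Vtn at 1546 and 1981 (-0.36, -0.49 to -0.23). Since each member was selected on these genes, their levels are given as a description. They also stand in the vasoactive, ion channel, receptor, Notch, matrix and respiratory chain lists below.

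Of the marks of pericytes outside the rule, 1 of 14 measured was higher and 0 lower with a median of 0.28, against 2.66% and 1.94% of all genes. That one was Kcne4, a potassium channel subunit gene, at 120 against 55.5 CPM (1.05, 0.46 to 1.82). Over members with both channel genes it was 0.34, below 2-fold. Steap4 was at 962 and 1106 CPM (-0.20, -0.37 to -0.03), and Art3 at 915 and 965 (-0.08, -0.26 to 0.10). Contractile genes gave 0 of 17 in either direction with a median of 0.29. That median was -0.15 over members with both channel genes, -0.26 over members with at least 3 supporting genes and -0.45 over members with Rgs5 and few other markers, so its sign turned with the choice of members.

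Among 18 vasoactive genes measured, 1 was higher in the chimera and 0 lower with a median of 0.40. Npy1r, a receptor for the sympathetic cotransmitter neuropeptide Y, had 167 UMIs in the chimera versus 48 in the SD rat, at 261 and 102 CPM (1.31, 0.88 to 1.84). It was found in 39.2% and 22.7% of pericytes, and in 12.3% and 6.06% after thinning to 1000 UMIs, against 0% and 0.0845% of thinned FAPs. Its log2 difference stayed between 1.11 and 1.25 under the 3 stricter choices of members just named, and turned to -0.96 over the 14 chimera members with at most 10% of UMIs on mouse rows. Other vasoactive receptors were higher by less than 2-fold, with 0.86 for the angiotensin receptor Agtr1a (0.35 to 1.48), 0.75 for the endothelin receptor Ednra (0.31 to 1.26) and 0.61 for Ednrb (0.37 to 0.86). Rgs4 was 0.80 higher (0.58 to 1.04).

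**Figure D5:**
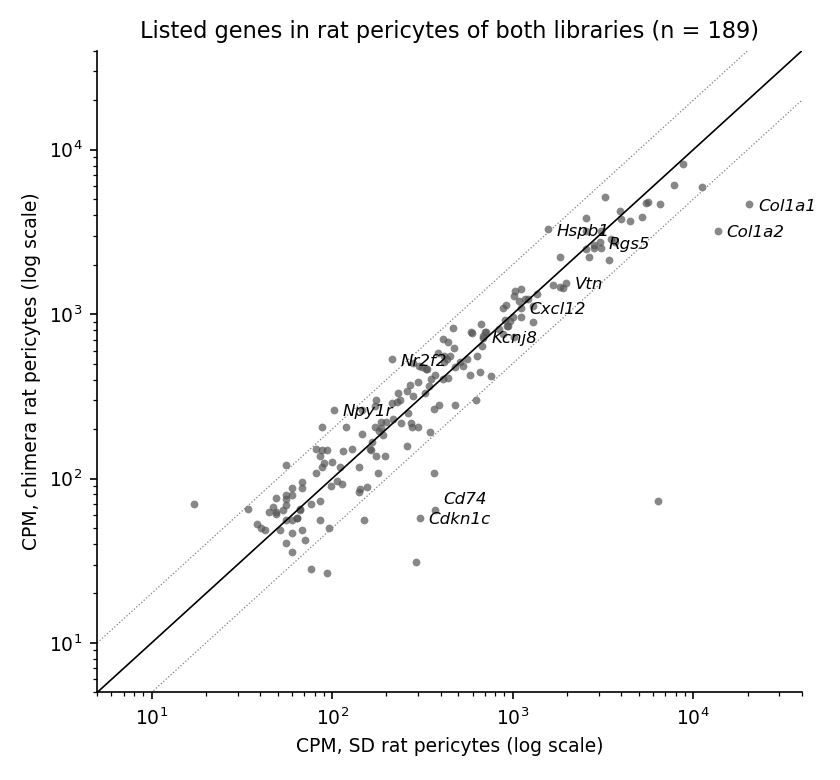
Each point is 1 of 189 listed genes, with its CPM in SD rat pericytes (horizontal) and in chimera rat pericytes (vertical) on log axes, a solid line at equality and dotted lines at 2-fold. Col1a1 lies below the lower dotted line at 20491 and 4658 CPM, and Npy1r above the upper one at 102 and 261 CPM.

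Receptors and ligands to the endothelium gave 0 of 15 in either direction with a median of -0.03. Cxcl12 was at 1088 and 1108 CPM (-0.03, -0.19 to 0.14) and Timp3 at 1329 and 1366 (-0.04, -0.19 to 0.11). The 5 measured endothelial ligands and receptors gave 0 either way (median -0.25), and the 7 measured Notch genes also gave 0 (0.29), with Hes1 highest at 0.78 (0.54 to 1.03). The ion channels gave 1 of 8 higher, which was again Kcne4. Integrins gave 0 of 7 either way.

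Matrix genes gave 0 higher and 2 lower of 24, with a median of -0.18. The lower ones were the chains of fibrillar collagen I, with Col1a1 at 4658 CPM in the chimera versus 20491 in the SD rat (-2.14) and Col1a2 at -2.08. A single cell held 35.0% and 35.6% of the Col1a1 UMIs of the respective library, and 32.5% and 36.6% of those of Col1a2. Over members with both channel genes Col1a1 was -0.10 and Col1a2 -0.12, and over those with at least 3 supporting genes both were -0.39. Over members with Rgs5 and few other markers they were -1.11 and -0.47. Under the stricter rules, but not in the last set for Col1a1, the difference was therefore below 2-fold. Basement membrane genes differed little, with Col4a1 at -0.28 (-0.38 to -0.18), Col4a2 at 0.03 (-0.15 to 0.21) and Lamc1 at 0.00 (-0.25 to 0.26).

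Of 12 transcription factors, 1 was higher and 0 lower with a median of 0.33. It was Nr2f2, a nuclear receptor of venous and mural cells, at 532 against 216 CPM (1.28, 0.98 to 1.64), with 54.1% of its chimera UMIs on the mouse row. Counted on rat rows alone it was 0.29, and over members with at most 10% of UMIs on mouse rows -0.85. Of 7 respiratory chain genes 1 was lower and 0 higher (-0.06). That was Cox6a2, a muscle isoform, at 300 against 625 CPM (-1.05), in cells whose myofibre markers also differed as given above. Over the 14 chimera members with at most 10% of UMIs on mouse rows it turned to 0.24.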

How the data were processed

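The analysis used 1 chimera and 1 SD rat library. The authors deposited unnormalized UMI counts for each barcode, which Cell Ranger 7.1.0 produced according to the submitters' processing notes, on the combined mRatBN7.2 and GRCm39 genomes for the chimera and on rat rows for the SD rat. Barcodes with at least 500 UMIs, 200 genes and at most 20% mitochondrial UMIs were kept, and rat and mouse rows of a symbol were added. CPM were taken over symbols on both references without mitochondrial genes, in genes with at least 50 summed UMIs, and 5 CPM were added before log2. Each group has 1 library, so no test was run and 95% exact intervals cover counting error only. Shares of cells are also given after thinning each cell to 1000 UMIs. Genes were named from pathway lists and by size (10 each way, in at least 10% of cells, at most 25% of UMIs in 1 cell). The members and lists were chosen with earlier results of these data known. Scrublet in scanpy 1.11.5 (expected rate 8%) scored doublets as an alternative, numpy 2.4.6, scipy 1.17.1, pandas 2.3.3 and matplotlib 3.10.9 were used, and the scripts were tested on simulated data.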

Additional observations from a re-analysis of the deposited data

How the results depend on the processing

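With 1 library a group, nothing here separates animals from libraries, and pericytes are few and shallow, so that Notch3 and other sparse genes rest on few UMIs. No paired analysis was possible because each group has 1 library. Of 177 alternative values of the main counts and shares, 123 stayed within their bounds and 54 moved. Of 4903 alternative gene values, 4193 did so, 700 moved and 10 changed sign. Leaving out a replicate was not possible with 1 library a group, and the mouse against rat pericyte comparison was not run because 1 mouse barcode met the rule.

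Filters on low counts moved the numbers of genes. In chimera over SD rat pericytes, 289 were higher and 176 lower with at least 20 summed UMIs, 22 and 21 with at least 200, and 772 and 476 with no filter. In pericytes over smooth muscle cells, the same 3 filters gave 459 and 396, 72 and 32, and 1003 and 1015 in the SD rat, and 637 and 376, 111 and 72, and 1106 and 697 in the chimera. With 20 CPM added, 60 were higher in chimera over SD rat pericytes. Without genes split between the species' rows, 45 were higher and 47 lower there, 103 were lower than in smooth muscle cells of the SD rat, and in the chimera 242 were higher and 121 lower. With each cell scaled to the same total 284 were lower than in SD rat smooth muscle cells, and Cenpf turned to 0.48 in chimera over SD rat pericytes. With at most 10% mitochondrial UMIs, chimera pericytes made up 1.56% of rat barcodes and 120 genes were lower than in smooth muscle cells.

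A species threshold of 90% left 14 chimera pericytes (0.472% of rat barcodes) and mouse shares of 6.67% in pericytes and 94.99% in endothelial cells. These shares came with a loss of rat cells and are not closer estimates. That threshold also moved the numbers of genes. It gave 165 genes higher and 298 lower in chimera over SD rat pericytes, 83 and 74 in chimera pericytes over smooth muscle cells, and turned Cox6a2 to 0.24, Npy1r to -0.96 and Nr2f2 to -0.85. Species by the majority of UMIs gave 2 mouse pericytes. Taken over all chimera barcodes with both kinds of genes, the mouse share of endothelial UMIs was 70.5%.

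With 3 or more supporting genes, pericytes were 1.72% and 1.24% of chimera rat and SD rat barcodes, 0 were mouse (0%) and 43 genes were lower in the chimera. With both channel genes, 103 and 75 pericytes remained (1.22% and 0.835%), 0 were mouse and 40 genes were lower. Cxcl10, against chimera smooth muscle cells, turned to -0.23 and -0.29 under these rules. Members with Rgs5 and at most 2% of UMIs on other markers, chosen after seeing the data, were 1.57% of chimera rat barcodes, 56 SD rat cells (0.624%) and 0 mouse cells, with 36 genes lower. Against SD rat smooth muscle cells with at least 5 Myh11 UMIs, also chosen after seeing the data, Ano1 turned to -0.54, Gja4 to -0.86, Myl9 to -0.18 and Cdkn1c to 0.73. The cause of these changes was not tested, beyond the smaller numbers of cells and genes that the alternatives leave.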

Other observations

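Pericytes also held RNA of immediate early genes and of chemokines, groups known to respond to tissue dissociation and to inflammation. Against smooth muscle cells of the same library, 2 of 12 measured immediate early and heat shock genes were higher in SD rat pericytes and 6 of 12 in chimera rat pericytes, with 0 lower in either and medians of 0.25 and 0.78. The shares of all genes higher were 7.99% and 9.2%. Against smooth muscle cells with at least 5 Myh11 UMIs, a choice made after the data were seen, 0 of 12 were higher and 2 lower in the SD rat (-0.40), and 5 of 12 were higher and 0 lower in the chimera (0.81), so in the SD rat the median changed sign. Of the cytokine and adhesion genes, 2 of 13 were higher in the SD rat and 8 of 12 in the chimera, again with 0 lower, with medians of 0.53 and 1.12. Against the cells with at least 5 Myh11 UMIs, 8 of 12 cytokine and adhesion genes were higher in the SD rat (1.40) and 9 of 12 in the chimera (2.07), beside 10.4% and 12.9% of all genes measured there. Ccl2, a monocyte chemokine, was then 3.60 higher in the SD rat and 2.43 in the chimera, the neutrophil chemokine Cxcl1 3.05 and 2.60, and the cytokine Il6 2.88 and 2.35. The part of the digestion in these values was not tested.

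Between the libraries, 1 of 12 immediate early and heat shock genes was higher in the chimera and 0 lower (median 0.31). That was the small heat shock gene Hspb1, with 2099 UMIs in the chimera versus 733 in the SD rat (log2 1.07), and it was 0.66 over members with Rgs5 and few other markers. Of 13 cytokine and adhesion genes 1 was lower and 0 higher (-0.19), which was Ccl19 at -1.30 with 18 against 36 UMIs. Of 8 genes of antigen presentation and interferon 1 was lower and 0 higher (-0.14). That was Cd74, the invariant chain of MHC class II, with 41 UMIs in the chimera versus 174 in the SD rat, of which a single cell held 95.4%. Cell cycle genes gave 2 higher and 2 lower of 6, beside 2.66% and 1.94% of all genes. Top2a was among the higher and Cenpf among the lower ones, and 1 SD rat cell held 100% of the SD rat UMIs of each. Lipid uptake genes gave 0 of 6 either way (0.01).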
